A study of Zea mays subsp. mays and Zea mays subsp. parviglumis and Zea luxurians with 126 samples.

Results

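The miR167 target genes of *Zea* anthers were followed at the level of the cut site. A gene was included when the cleavage-site table of any miRNA library listed a site on it for a small RNA whose name contains miR167 followed by a non-digit, with an Allen score of at most 4 and a target outside *PHAS* loci. Mispaired bases raise the Allen score of a predicted site, so a lower score means a closer match. The rule found 70 genes, of 2539 genes that any miRNA was listed to target at the same limit. Anthers were staged by length, and 5′ ends of their RNAs were sequenced by nanoPARE, which also catches the new 5′ end of a transcript that a small RNA has had cut. The RPM of a site is its number of reads with this 5′ end, scaled by library depth, so it cannot separate the amount of a transcript from how often that transcript is cut. Transcript levels were not analysed here.

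Samples of ago18HM, the *ago18* triple homozygous mutant, were set against ago18HT, their triple heterozygous siblings, at 0.5, 2 and 5 mm, taken as premeiotic, meiotic and postmeiotic, with 3 libraries in each group but ago18HT at 0.5 mm, which had 2. Both genotypes carry mutated alleles of *ago18a*, *ago18b* and *ago18c*, the last from a Mu insertion, are free of transgene and are mostly B73. Inbred maize (B73, HP301, Il14H, Oh43) was sampled at 2 mm (meiotic) and 0.4 mm (premeiotic). The teosintes were *Z. mays* subsp. *parviglumis* TIL11 at 0.4, 0.7, 1, 1.5 and 2 mm, subsp. *mexicana* TIL25 at 1.5 and 0.4 mm, and *Z. luxurians* RIL003 at 0.4, 0.7 and 1.5 mm. In TIL11 the lengths of 0.4 and 0.7 mm were taken as premeiotic and those of 1.5 and 2 mm as meiotic. The 1.5-mm anthers of RIL003 were taken as meiotic and its shorter ones as premeiotic. TIL25 at 0.4 mm was premeiotic. Its staged meiotic length was 2 mm, no library of which was analysed here, so that counting its 1.5-mm anthers as meiotic is an assumption. The 24 groups held 2 or 3 biological replicates from distinct plants. Maize was grown in a greenhouse and teosinte in a growth chamber, so growth conditions and subspecies cannot be told apart.

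miR167 is a conserved plant miRNA that guides cleavage of mRNAs of AUXIN RESPONSE FACTOR (ARF) genes, transcription factors that bind auxin-responsive promoters. In *Arabidopsis* its ARF targets act in the maturation of anthers and ovules, and plants in which miR167 cannot act on them have reduced fertility. The same pathway is tuned by miR160, which targets other ARF genes, by miR390, which triggers the TAS3 small RNAs that act on further ARF genes, and by miR393, which targets the TIR1/AFB auxin receptors.

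Sequences are shown for miR167a and miR167b, on which 24 and 25 of all 51 passing values rest, and for the 3p forms that could be matched by name, which have other seeds. They come from the study's list of small RNAs, and the capitals mark the seed, bases 2 to 8.
miR167a: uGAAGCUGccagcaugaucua
miR167b: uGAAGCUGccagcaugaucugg
miR167h-3p: aGGUCAUGcuguaguuucauc
miR167 3p of B73 and Oh43: gGUCAUGCugcugcagccucacu
miR167 3p of HP301, Il14H and RIL003: gAUCAUGCuguggcagccucacu
miR167i-3p of TIL25: aGAUCAUGuugcagcuucacu
The miR167a form has 21 bases and the miR167b form 22. They share their first 20 bases and the seed, and differ at their 3′ end. The miR167b sequence was matched by name in HP301, Il14H and Oh43. In the other varieties the name in the tables, which also joins several prediction tools, did not match an entry with a sequence. Names were counted once in each genotype, so that B73, ago18HM and ago18HT can repeat a name. Of these pairs of a genotype and a miR167 name, 23 were matched to a sequence and 17 were not. Among the unmatched was the joint name of miR167h-3p and miR167i-3p, which was listed for 14 genes in ago18HM.

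Of the 70 genes, 35 were listed in a single library. The 70 genes gave 196 gene and library pairs, of which 51 had an adjusted p-value below 0.05 at EndCut, the step of the authors' pipeline that tests predicted sites. Site RPM ranged from 0.00445 to 2.34, with a median of 0.185, and 128 of the 196 pairs rested on at most 2 reads. Across the target genes of all miRNAs, 37.0% of 6449 pairs passed, and the 51 of 196 for miR167 lay below that. The genes fell into 3 kinds by small RNA. miR167b was listed for 13 genes at Allen scores of 2.5 to 3, and 25 of its 31 pairs passed (80.6%). miR167a was listed for 16 genes, all with a score of 4, and 24 of its 82 pairs passed (29.3%). The remaining 41 genes were listed for other miR167 names, mostly 3p forms, and 2 of their 83 pairs passed (2.41%). These shares are a description, with no test.

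The values also differed in how often they stood for whole reads. A value was taken as whole reads when it was within 0.02 of a whole number. Whole reads made up 30 of 31 miR167b values, 22 of 82 miR167a values and 63 of 83 values of the other names. In replicate 3 of ago18HM at 5 mm, 8 genes listed for miR167h-3p and miR167i-3p had the same 0.0185 RPM, 0.09 of a read. These genes were listed in no other library.

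A gene was called positive when its EndCut p-value was below 0.05 in at least 2 replicates of 1 group, which is the study's rule. In the varieties 6 of 47 miR167 target genes were positive (12.8%), against 13.6% of 2360 genes over all miRNAs and 37 of 55 for miR160. In *ago18* anthers 1 of 32 was positive (3.12%), Zm00001eb042640 in ago18HT at 0.5 mm, against 5.37% of 670 over all miRNAs and 8 of 11 for miR160. The share of positive genes in the miR167 set was thus near the background. The 6 positive genes, Zm00001eb042640 of B73, Zm00028ab067450 of Il14H, the TIL11 genes Zv00002aa003938 and Zv00002aa006138, and the TIL25 genes Zx00003aa003511 and Zx00003aa005518, are all named ARF in the study's target table. That table holds only interactions called positive, so it says nothing of the other 64 members, and the members are called miR167 target genes here. HP301, Oh43 and RIL003 had no positive miR167 gene at this limit.

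The gene listed for miR167b at an Allen score of 3 was found once in every genome. These genes were grouped after their values were seen, so the pattern is a description. B73 and *ago18* shared Zm00001eb042640, with its site at position 3077 of the transcript, and TIL11 and TIL25 had theirs at position 2907 in Zv00002aa003938 and Zx00003aa003511. The other members of the group are Zm00027ab042990 in HP301, Zm00028ab043400 in Il14H, Zm00039ab043210 in Oh43 and RIL003_4426. In the varieties these genes were listed in 6 of 21 meiotic libraries, with 4 passing, against 12 of 22 premeiotic libraries, with 10 passing. Of the 6 meiotic listings, 3 were in TIL25, 2 in B73 and 1 in RIL003. Without TIL25, whose 1.5-mm stage the study does not give, they were listed in 3 of 18 meiotic libraries, against 11 of 19 premeiotic ones, a count chosen after the data were seen.

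In TIL11 the value of Zv00002aa003938 by length was 0 and 0.169 RPM at 0.4 mm, 1.52, 0.731 and 1.63 RPM at 0.7 mm, 1.52, 0.467 and 0.654 RPM at 1 mm, and 0 in all 6 libraries of 1.5 and 2 mm. The 0.7- and 1-mm libraries held 4 to 14 reads at the site, and each of the 6 passed EndCut. No library of 1.5 or 2 mm overlapped with them, while a 0.4-mm library was also at 0. At 0.690 RPM, the mean of the 0.4- and 0.7-mm group means, the meiotic libraries would have held 3.35 to 5.22 reads each. On the log2(RPM + 0.1) scale, limma gave a difference of -2.22 between the meiotic and the premeiotic lengths (SE 0.547, adjusted p = 0.0380), 1 of 5 members tested, where 1.01% of 298 features of all miRNAs were called. This difference depends on the pseudocount, because the later group is listed at 0, and is no bound on the change. The call was lost with a pseudocount of 1, with no filter on the number of libraries, with the number of the replicate as a block, and when any 1 of 9 libraries was left out (both at 0.4 mm, replicates 1 and 3 at 0.7 mm, all 3 at 1.5 mm, and replicates 1 and 3 at 2 mm), with adjusted p up to 0.289. The gene was listed only at 0.4, 0.7 and 1 mm, so it entered the fit through the lengths where it is high. Its limma p is thus no support for a difference. An exact permutation test gave p = 0.0152 (two-sided, 462 regroupings, smallest possible 0.00216) and an adjusted p of 0.732. Its lowest adjusted p over all 298 features was 0.645, so it says nothing of the stability of the call.

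**Figure D1:**
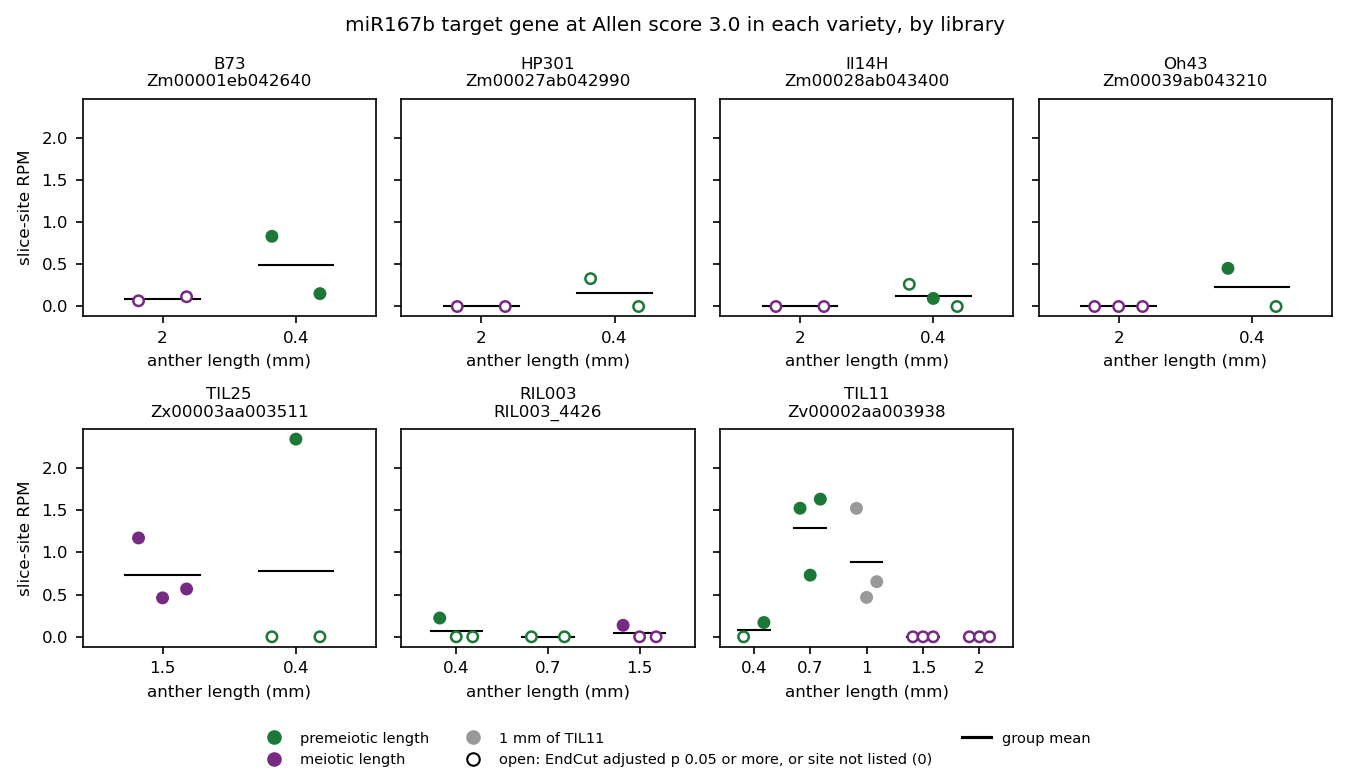
Slice-site RPM (vertical axis) of the gene listed for miR167b at an Allen score of 3 in each variety, by anther length in mm; each point is 1 library, filled where EndCut adjusted p was below 0.05, open where it was not or where the site was not listed (0), and bars are group means. TIL11 at 0.7 and 1 mm lies between 0.467 and 1.63 RPM, and its 6 libraries at 1.5 and 2 mm lie at 0.

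In the other varieties the miR167b gene was seen in fewer reads. In B73, Zm00001eb042640 had 0.0674 and 0.115 RPM at 2 mm, 1 read each, against 0.832 and 0.153 RPM at 0.4 mm, 11 and 2 reads. The lengths did not overlap in this gene, but with 2 libraries at each length nothing is read from that. The log2 difference of Zm00001eb042640 was -1.35, with an adjusted p of 0.386 by limma. HP301 had 0.330 RPM in 1 of 2 libraries at 0.4 mm, Oh43 had 0.453 RPM in 1 of 2 and Il14H had 0.263 and 0.0958 RPM in 2 of 3, and no library of these lines was listed at 2 mm. RIL003_4426 had 0.223 RPM in 1 of 5 premeiotic libraries and 0.137 RPM in 1 of 3 at 1.5 mm, both passing. In TIL25, Zx00003aa003511 had 1.17, 0.462 and 0.567 RPM at 1.5 mm, each passing, against 0, 2.34 and 0 RPM at 0.4 mm. The value of 2.34 RPM was 4 reads in a library where 1 read is worth 0.586 RPM. The groups overlapped, with a log2 difference of 1.43 (SE 1.29, adjusted p = 0.449 by limma). By group mean, the highest level was that of TIL11 at 0.7 mm, 1.30 ± 0.492 RPM (SD, n = 3), followed by TIL11 at 1 mm, 0.881 ± 0.564 RPM (SD, n = 3), TIL25 at 0.4 mm, 0.782 ± 1.35 RPM (SD, n = 3), and TIL25 at 1.5 mm, 0.734 ± 0.383 RPM (SD, n = 3). These neighbours differed by less than their spread. B73 at 0.4 mm had 0.493 ± 0.481 RPM (SD, n = 2), and RIL003 at 0.4 mm had 0.0742 ± 0.128 RPM (SD, n = 3). Each variety was mapped to its own genome, and levels were set side by side without a test.

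Depth differed between groups and bears on these comparisons. The libraries of TIL25 at 0.4 mm had 1.71 to 2.56 M reads (M being the prefix mega), against 4.33 to 5.97 M reads at 1.5 mm, and 1 read was worth 0.390 to 0.586 RPM in the shallower group. The part of this in the TIL25 comparison was not tested. Recovered depth ran between 1.35 and 18.7 M reads in the 63 libraries (median 7.55), and 75.4 to 88.5% of the values in a library were whole reads. The lengths were checked against miR2118 on 21-*PHAS* loci, which acts before meiosis. Its summed RPM was 136 to 604 in the premeiotic libraries of the varieties and at most 49.7 in the meiotic ones, except TIL25 at 1.5 mm, which had 276 to 539. In the same TIL25 libraries miR2275 on 24-*PHAS* loci summed to 3712 to 35003 RPM, and these sums do not settle the stage of that length. In TIL11 the miR2275 sum, a mark of meiosis, was 4.54 to 12.4 RPM at 2 mm. It was 5815 to 10259 RPM at 1.5 mm and 3.43 to 9.25 RPM at 0.7 mm. B73 had 6.93 to 17.7 RPM at 2 mm and 0.305 to 3.52 RPM at 0.4 mm. The other maize lines had 37.0 to 4217 RPM at 2 mm, and RIL003 had 12309 to 16694 RPM at 1.5 mm. The miR2275 sums thus do not settle the stage of TIL11 and B73 at 2 mm.

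The genes listed for miR167a were seen at premeiotic and at meiotic lengths. In the varieties 15 genes were followed. Their sites were listed in 36 of 45 meiotic values, with 12 passing, and in 29 of 47 premeiotic values, with 10 passing. The meiotic mean was 0.336 ± 0.323 RPM and the premeiotic mean 0.334 ± 0.511 RPM (SD over values that share genes and libraries). These values pool genes of different genomes, so the SD is not a spread of replicates. The meiotic values include those of TIL25, whose stage is an assumption, and the means were not taken without them. No comparison of the stages is drawn from these means. In B73, Zm00001eb066640 had 0.562 and 0.462 RPM at 2 mm, against 0.303 and 0.0825 RPM at 0.4 mm. In HP301, Zm00027ab067090 had 0.449 and 0.144 RPM at 2 mm, against 0.499 and 0.284 RPM at 0.4 mm. In Il14H, Zm00028ab067450 had 0.996 and 0.548 RPM at 2 mm, against 0.905, 0 and 2.08 RPM at 0.4 mm. The 2.08 RPM, with 24 reads, was the largest number of reads of any member, and all 4 listed libraries of this gene passed. In Oh43, Zm00039ab442910 had 0, 0.365 and 0.684 RPM at 2 mm, against 0.511 and 0.0961 RPM at 0.4 mm. The groups overlapped in HP301, Il14H and Oh43. In B73 the 2-mm values were above the 0.4-mm ones, but with 2 libraries at each length nothing is read from that. None of these 4 genes passed the limma test, with adjusted p between 0.272 and 0.986.

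**Figure D2:**
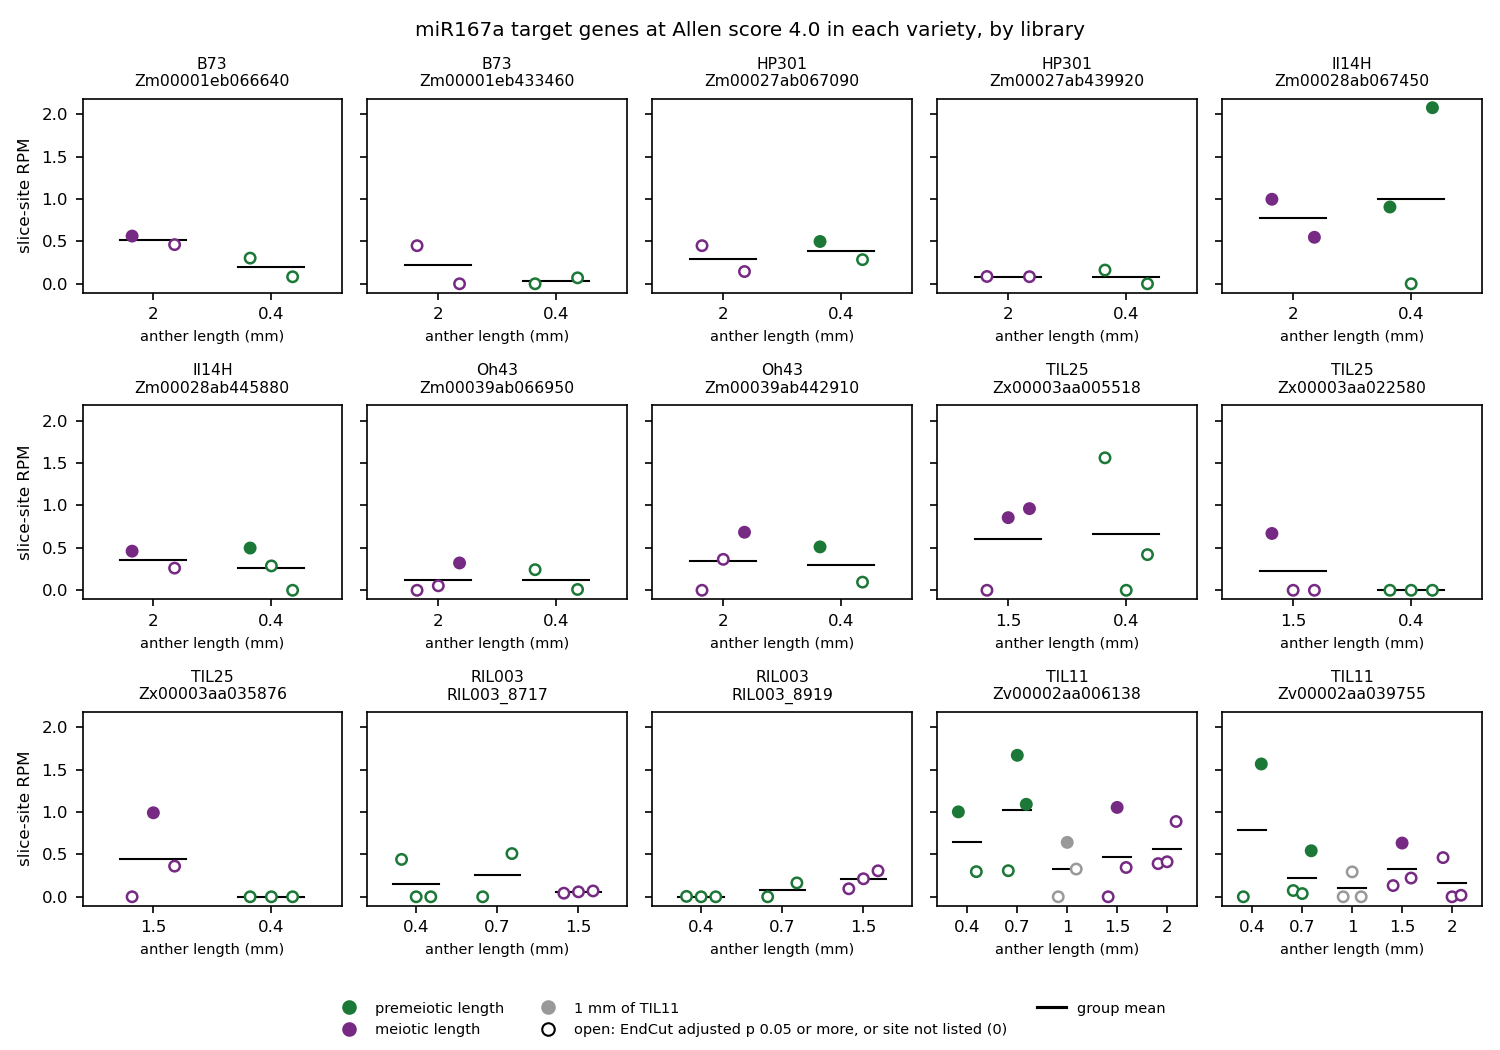
Slice-site RPM (vertical axis) of the 15 genes listed for miR167a at an Allen score of 4 in the varieties, by anther length in mm, drawn as in the plot of the miR167b genes. Filled points, which passed EndCut, occur at premeiotic and at meiotic lengths, up to 2.08 RPM in Il14H at 0.4 mm.

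In the teosintes, too, miR167a genes were listed at both stages. In TIL11, Zv00002aa006138 was listed in 12 of 14 libraries, with 1.00 and 0.296 RPM at 0.4 mm, 0.307, 1.67 and 1.09 RPM at 0.7 mm, 0, 0.641 and 0.327 RPM at 1 mm, 0, 1.05 and 0.345 RPM at 1.5 mm, and 0.391, 0.413 and 0.888 RPM at 2 mm. Its log2 difference between the meiotic and premeiotic lengths was -0.71 (SE 0.688, adjusted p = 0.733 by limma), and the groups overlapped. Zv00002aa039755 was listed in 10 of 14 libraries, between 0.0181 and 1.57 RPM. In TIL25, Zx00003aa005518 had 0, 0.856 and 0.963 RPM at 1.5 mm, against 1.56, 0 and 0.421 RPM at 0.4 mm, with a log2 difference of 0.08 (adjusted p = 0.975 by limma). The remaining TIL25 genes were listed only at 1.5 mm, Zx00003aa022580 in 1 library and Zx00003aa035876 in 2. In RIL003, RIL003_8717 had 0.441 RPM in 1 of 3 libraries at 0.4 mm, 0.509 RPM in 1 of 2 at 0.7 mm, and 0.0424, 0.0581 and 0.0687 RPM at 1.5 mm, each under 1 read, with no library passing. Its log2 difference was -0.42 (SE 0.827, adjusted p = 0.782 by limma), and of the alternatives it was called only with unlisted libraries as missing (-1.88, adjusted p = 0.0428). The other miR167a gene, RIL003_8919, which was singled out after its values were seen, had 0.00445, 0 and 0 RPM at 0.4 mm, 0 and 0.164 RPM at 0.7 mm, and 0.0943, 0.212 and 0.306 RPM at 1.5 mm. Its log2 difference had the opposite sign, 1.18 (SE 0.528, adjusted p = 0.124 by limma), with no library passing and the groups overlapping. In the shallower premeiotic libraries 1 read was worth 0.211 to 0.312 RPM, so their values of 0 are to be read with that.

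The closest matches rested on few reads, though most of their values passed EndCut. The 6 genes listed for miR167b at an Allen score of 2.5, one each in HP301, Il14H, Oh43, TIL25, RIL003 and *ago18*, had 7 values between 0.0312 and 0.231 RPM, mostly of 1 read, and 5 of these passed EndCut. Their median of 0.112 RPM lay below the 0.193 RPM of the members with a score of 4. At a score of 4 there were 40 genes, 11 of them passing in a library and 3 positive, and the next score of 4.5 had 49 genes with none passing. At a score of 5, above the limit, 20 of 152 genes passed and 9 were positive.

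The comparisons of length in the other varieties called no miR167 target gene. In B73, 0 of 6 members were called, where 0.699% of 143 features were, and 2 members, Zm00001eb327980 and Zm00001eb136770, had an unadjusted p below 0.05 by limma (adjusted p = 0.0538 and 0.0938). Both are listed for 3p or unlabelled names, were listed at 0 in both 2-mm libraries and rested on 1 or 2 reads in each 0.4-mm library, with none passing EndCut. They entered the fit only through the length where they are high, so these p-values are no support for a difference. HP301 had 0 of 4 called against 18.8% of 85 features, and Il14H had 0 of 3 against 0.98% of 102. Oh43 had 0 of 2 against 11.1% of 99, TIL25 had 0 of 3 against 7.77% of 103, and RIL003 had 0 of 5 against 31.5% of 143. No member of these 5 fits had an unadjusted p below 0.05. The median log2 difference of the members was -0.63 in B73 (-0.12 over all features), 0.24 in HP301 (0.28) and 0.48 in Il14H (-0.03). Among the others, Oh43 had -0.06 (-0.02), RIL003 had 0.13 (-0.08), TIL11 had -0.25 (-0.06) and TIL25 had 1.43 (1.15). With 2 to 6 members in a fit, the medians are descriptions.

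In the *ago18* anthers the miR167b gene was listed only at the premeiotic length. Zm00001eb042640 had 0, 0 and 0.451 RPM in ago18HM at 0.5 mm, against 0.441 and 0.965 RPM in ago18HT at 0.5 mm, and it was at 0 in all 12 libraries of 2 and 5 mm. The ago18HM value was 1 read, and the 2 ago18HT values were 4 and 6 reads, all 3 passing. At the ago18HT mean of 0.703 RPM, the libraries of 2 and 5 mm would have held 3.42 to 8.46 reads. The 0.5-mm mean over both genotypes was lower, 0.427 RPM, and would give fewer reads. By limma the difference between 2 and 0.5 mm over both genotypes was -1.87 on the log2(RPM + 0.1) scale (SE 0.424, adjusted p = 0.0118), the only call among 13 members, where 5.14% of 331 features were called. It was lost without replicate 2 of ago18HT at 0.5 mm (adjusted p = 0.0861) and when values were centred on the library median (adjusted p = 0.0611). The gene was listed only at 0.5 mm, so it entered the fit through the length where it is high. Its limma p is thus no support for a difference. An exact permutation test gave p = 0.05 (two-sided, 200 regroupings, smallest possible 0.005), and its lowest adjusted p over all 331 features was 0.473, so it says nothing of the stability of the call. Between 5 and 2 mm 0 of 13 members were called against 1.51% of 331 features, and none had an unadjusted p below 0.05 by limma.

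**Figure D3:**
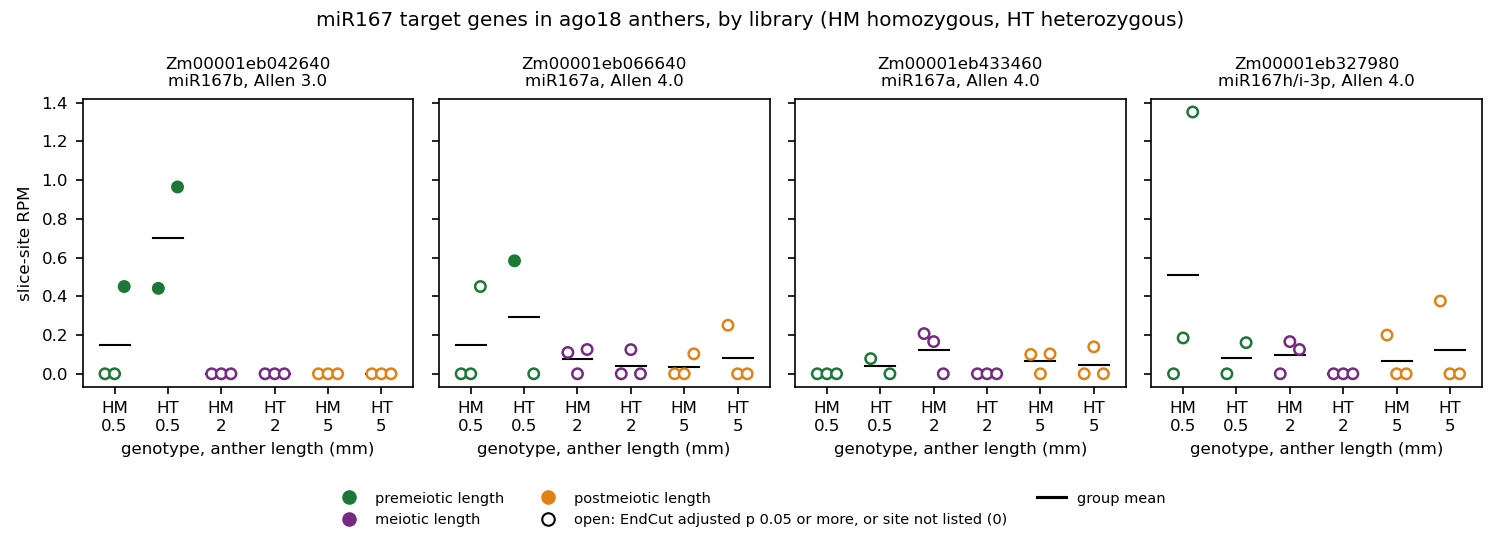
Slice-site RPM (vertical axis) of 4 miR167 target genes in ago18HM (HM) and ago18HT (HT) anthers at 0.5, 2 and 5 mm, drawn as in the plot of the miR167b genes, with orange for the postmeiotic length. Zm00001eb042640 is above 0 only at 0.5 mm, in 1 of 3 HM and 2 of 2 HT libraries.

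Between the genotypes, no miR167 target gene was called. At 0.5 mm, Zm00001eb042640 had a log2 difference of -2.10 for ago18HM against ago18HT (SE 0.633, adjusted p = 0.101 by limma), where 1.81% of 331 features were called. The ago18HM libraries at 0.5 mm were shallow, with 1.35 to 5.40 M reads against 6.22 to 9.06 M reads in ago18HT. At the ago18HT mean of 0.703 RPM, 0.947, 3.80 and 1.56 reads would have been found in the 3 ago18HM libraries, and 0, 0 and 1 were. A difference was thus not detectable in replicate 1 at this depth, and hardly so in replicate 3. That mean itself rests on 2 libraries. The difference passed the limma threshold with a pseudocount of 1 (adjusted p = 0.0454) and with passing sites only (adjusted p = 0.0458). It also passed when values were centred (adjusted p = 0.000237 by limma) and without replicate 3 of ago18HM at 0.5 mm (-2.92, adjusted p = 0.00176). Without that replicate the gene was listed only in ago18HT, so it entered the fit through the group where it is high. The p of 0.00176 is thus no support for a difference. At 2 and 5 mm 0 of 13 members were called, against 0% of 331 features at each length, and over the mean of the 3 lengths 0 of 13 against 0%. The lowest adjusted p of the members was 0.783 at 2 mm, 0.876 at 5 mm and 0.590 for the mean of the lengths, and 1 member at 0.5 mm and none elsewhere had an unadjusted p below 0.05. The change of the genotype difference with length was not called either, with a lowest adjusted p of 0.465, for Zm00001eb042640. At 2 mm, miR2275 on 24-*PHAS* loci summed to 4.83 to 34.2 RPM in ago18HM, against 6.03 to 2464 RPM in ago18HT, and the part of staging in the comparisons was not tested.

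The other *ago18* members were sparse. Zm00001eb066640 was listed in 7 of 17 libraries, with 1 passing, up to 0.584 RPM in ago18HT at 0.5 mm. Zm00001eb433460 was listed in 6, at up to 0.208 RPM. Zm00001eb327980, listed for miR167h-3p and miR167i-3p, was listed in 7 libraries at up to 1.35 RPM, which was 3 reads, with no library passing. Its 7 values were in ago18HM at 0.5 mm (2 of 3 libraries), 2 mm (2 of 3) and 5 mm (1 of 3), and in ago18HT at 0.5 mm (1 of 2) and 5 mm (1 of 3). The log2 difference of this gene was -0.81 between 2 and 0.5 mm (SE 0.630, adjusted p = 0.659 by limma) and 1.10 between ago18HM and ago18HT at 0.5 mm (SE 0.940, adjusted p = 0.758). Of the 32 genes listed in *ago18* anthers, 19 were listed in a single library.

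**Figure D4:**
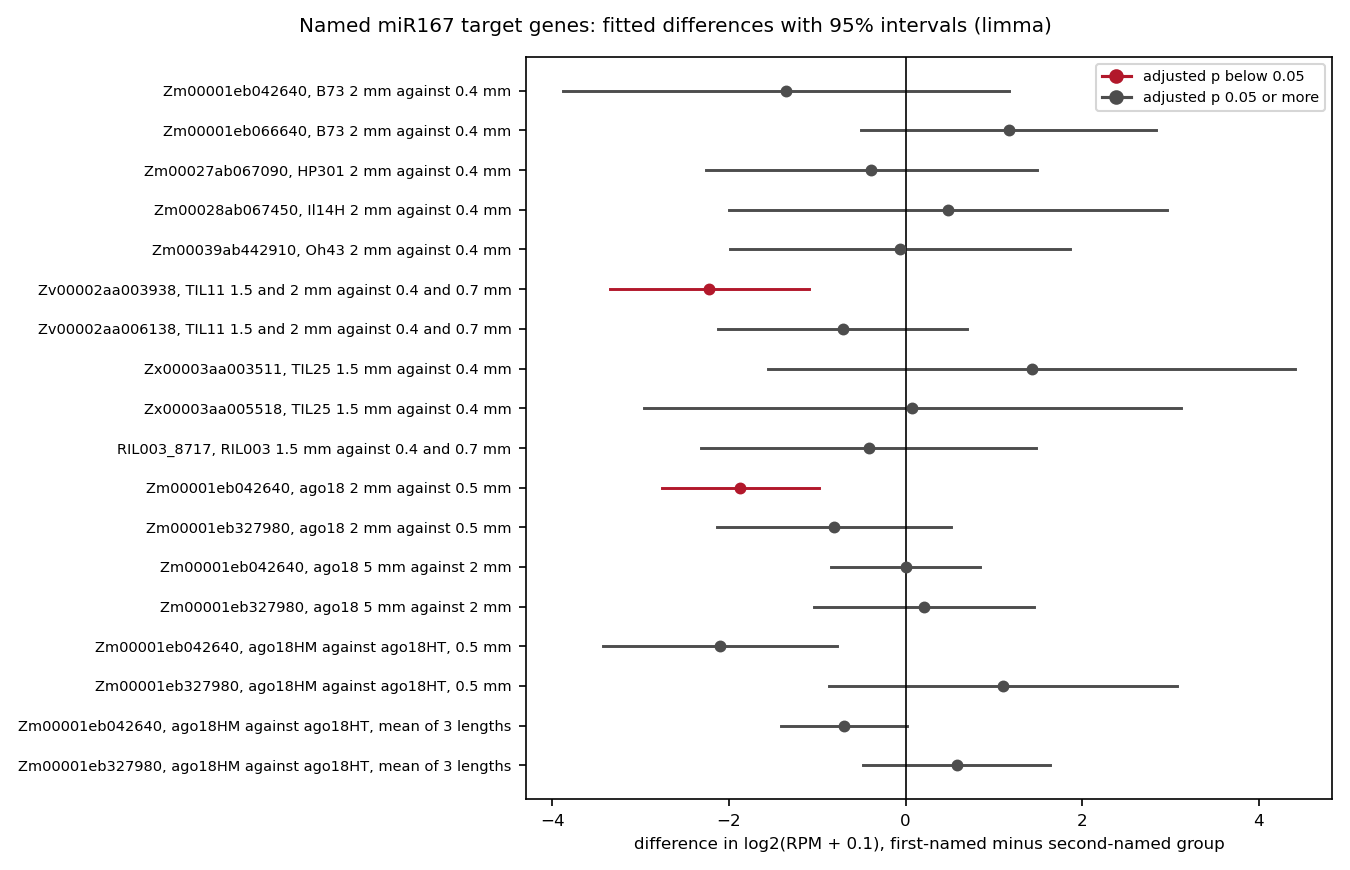
Fitted differences in log2(RPM + 0.1) with 95% intervals for the named miR167 target genes, the first-named minus the second-named group (limma); red marks an adjusted p below 0.05. Of 18 differences, 2 are red, -2.22 for Zv00002aa003938 and -1.87 for Zm00001eb042640, and both are meiotic against premeiotic. Both genes were at 0 in all meiotic libraries of their fits. They entered the fits only through the lengths where they are high, so red is no support for a difference.

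The other miRNA families of the auxin pathway were read beside miR167. Of 59 miR160 target genes, 263 of 277 pairs passed EndCut (94.9%), against 20 of 29 pairs of the 14 miR393 target genes and 1 of 23 pairs of the 10 miR390 target genes. In the length and genotype comparisons a single gene of these families was called, Zm00039ab253140 for miR160 in Oh43, which averaged 0.158 RPM at 2 mm, against 1.38 RPM at 0.4 mm (log2 difference -2.76, adjusted p = 0.0151 by limma). In TIL11 0 of 7 miR160 genes were called between the meiotic and the premeiotic lengths, with a lowest adjusted p of 0.0518, and in the 2-against-0.5-mm *ago18* comparison 0 of 9. Their median log2 difference in TIL11 was -0.81, against -0.25 for miR167, and 3 had an unadjusted p below 0.05 by limma. In the *ago18* length comparison the medians were -0.14 and -0.18. For ago18HM against ago18HT at 0.5 mm they were -0.69 and -0.54, with 4 of 9 miR160 genes at an unadjusted p below 0.05. Lower values were thus not confined to miR167. None of the miR167 members was listed for another miRNA at an Allen score of at most 4. Of the members, 21 were listed in the phasiRNA tables at any score, and none passed.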

How the data were processed

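Tables of the nanoPARE pipeline were used for 63 libraries, 1 for miRNAs and 1 for phasiRNAs of each. Per the paper's methods, the authors identified interactions in each sample with the nanoPARE pipeline and its EndCut step, with replicates not pooled. Gene IDs are of the RefGen_v5 annotation in B73 and *ago18* and of the version 1 annotations elsewhere. The pipeline's version is not given in the sources used here. The RIL003 transcripts were assembled by the authors. The deposited values are the RPM of each site, its score by the Allen scheme, the position of the slice site (as another number) and an adjusted p-value by the authors. The authors' fold change column was not used.

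The value of a gene in a library was its highest site RPM at an Allen score of at most 4, and 0 where none was listed. The depth was estimated from the RPM of 1 read, the most common value in a library, and it is an estimate because 75.4 to 88.5% of the values in a library were whole reads. Features (a miRNA family and a gene) listed in at least 2 libraries were tested with limma 3.58.1 in R 4.3.3, eBayes with trend, on log2(RPM + 0.1) and with Benjamini-Hochberg adjustment over all features of a fit. This fit was tested on simulated data. Their means were set above the site RPM of most members, so the test does not cover sites of few reads. Named genes were the positive members and, in each variety and in *ago18* anthers, the member listed in the most libraries (ties by the higher mean RPM). The members and the lists were chosen with earlier results of these data known. Python 3.11.15 and pandas 2.3.3 were used for the tables. Alternatives were other pseudocounts, filters, Allen limits, centring, a replicate block, an exact permutation test and leaving out each library. Leaving out libraries for the counts of positive genes was added after the data were seen. NC358 was not analysed here.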

Additional observations from a re-analysis of the deposited data

Results flagged for a closer look

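A set of genes carries a miR167a site above the Allen limit with reads that passed EndCut in at least 2 replicates, and these are outside the members. All have a score of 5, and no gene passed at 4.5. Over groups with at least 2 passing replicates, the highest passing RPM was 1.36 for RIL003_3477 in RIL003 at 1.5 mm, 2.32 for Zm00027ab032160 in HP301 at 2 mm, 1.23 for Zm00028ab139280 and 1.05 for Zm00028ab230900 in Il14H at 0.4 mm, 1.81 for Zm00039ab032410 in Oh43 at 2 mm, 3.10 for Zv00002aa002983 and 2.64 for Zv00002aa020680 in TIL11 at 0.7 mm, and 2.52 for Zx00003aa018629 and 1.59 for Zx00003aa022526 in TIL25 at 1.5 mm. The sites were not confined to these groups. Zv00002aa002983 was also positive at 1 and 1.5 mm. Single replicates passed elsewhere, such as RIL003_3477 at 0.7 mm (2.24 RPM) and Zm00028ab230900 in Il14H at 2 mm (1.89 RPM). They were looked at because they show a signal in sites that the comparisons of the report did not use. The study's table of positive interactions names 8 of the 9 ARF, all but RIL003_3477. HP301, Oh43 and RIL003, which had no positive member, each have 1 of these genes.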

How the results depend on the processing

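Of 502 alternatives of named differences, 458 were counted as keeping direction and side of the threshold. A further 16 lost a call, 6 gained one and 22 turned the direction. The 458 include all alternatives of Zm00001eb042640 between 5 and 2 mm and between the genotypes at 2 and at 5 mm. Its main difference there was 0, with no direction to keep, so these were counted as kept whatever they gave. The 6 positive genes of the varieties became 23 with 1 passing replicate, 3 at an EndCut p below 0.01, 3 at an Allen score of at most 3 and 15 with no limit on it, and 5 to 6 with a library left out. The 1 positive gene of *ago18* became 2 with 1 passing replicate, 0 at a p below 0.01, 0 at an RPM of at least 0.5, and 0 to 1 with a library left out (0 without either ago18HT library at 0.5 mm). The number of calls with a library left out was 0 to 1 for RIL003, TIL11, TIL25, *ago18* 2 mm against 0.5 mm and ago18HM against ago18HT at 0.5 mm, and 0 for the others. The library behind each gained call was replicate 2 at 0.7 mm in RIL003, replicate 1 at 1.5 mm in TIL25, and replicate 3 of ago18HM or replicate 1 of ago18HT at 0.5 mm between the genotypes.

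Other settings moved these counts of called members. B73 had 2 with a pseudocount of 0.01, RIL003 had 1 with unlisted libraries as missing and 2 when centred on the library median, and TIL25 had 1 when centred. TIL11 had 0 with a pseudocount of 1, with no filter on the number of libraries, and with unlisted libraries as missing (where Zv00002aa003938 has no meiotic value). *ago18* 2 mm against 0.5 mm had 0 with features listed in at least 50% of the libraries, 2 with no Allen limit, 0 with unlisted libraries as missing and 4 centred, and 5 mm against 2 mm had 6 with no Allen limit. ago18HM against ago18HT at 0.5 mm had 1 with a pseudocount of 1, 1 with no Allen limit, 1 with passing sites only and 11 centred, and the mean of the lengths had 3 centred. Centring moved the median of all features to 0.72 in *ago18* 2 mm against 0.5 mm and -1.37 between the genotypes at 0.5 mm, and it shifts unlisted values by construction. The exact permutation test gave 0 calls in TIL11 and in *ago18* 2 mm against 0.5 mm, where it called no feature of any miRNA (lowest adjusted p 0.645 and 0.473), so these counts are no sign of instability. Zv00002aa003938 had -2.52 (adjusted p = 0.732) by it and Zm00001eb042640 had -1.87 (adjusted p = 0.662).

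For Zv00002aa003938 the adjusted p was 0.132 with a pseudocount of 1 and 0.0702 with no filter, and 0.0269 to 0.289 without a library (log2 difference -2.58 to -1.87). For Zm00001eb042640 in *ago18*, ago18HM against ago18HT at 0.5 mm gave an adjusted p of 0.0454 with a pseudocount of 1, 0.0458 with passing sites only, 0.000237 centred (difference -3.48) and 0.00176 to 0.343 without a library. The lowest of these came without replicate 3 of ago18HM, when the gene was listed only in ago18HT, and is no support for a difference. Directions turned without a call in Zm00028ab067450 (-0.036 with a pseudocount of 1, -0.81 with unlisted libraries as missing), Zm00039ab442910 (0.036 and 0.80), RIL003_8717 (0.37 with a pseudocount of 0.01, 0.45 centred), Zx00003aa003511 (-1.65 with unlisted libraries as missing) and Zm00001eb327980 between the genotypes at 0.5 mm (-0.27 centred). With a library left out, the ranges that cross 0 were -0.97 to 0.20 for Zm00027ab067090, -0.81 to 1.41 for Zm00028ab067450, -0.88 to 0.80 for Zm00039ab442910, -1.07 to 0.24 for RIL003_8717, -0.99 to 1.19 for Zx00003aa005518, and, for Zm00001eb327980, -0.17 to 0.40 between 5 and 2 mm and -0.75 to 0.53 between the genotypes at 5 mm. The cause was not tested.

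Pairing by replicate number was not seen, since no pair of groups had every same-number correlation over 0.1 (r -0.217 to 0.246). With so few reads and libraries this check cannot exclude pairing. With the replicate block HP301 had 1 call and TIL11 had 0 (Zv00002aa003938 -2.23, adjusted p = 0.0542). Most sites rest on 1 or 2 reads, so depth limits all differences in single genes.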
